A study of Dimocarpus longan with 9 samples.

Results

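Gene expression was compared between pulp and young fruit of longan (Dimocarpus longan), a subtropical fruit tree of the soapberry family. Of the 9 libraries of the series, 2 were compared, 1 from pulp and 1 from young fruit, and every gene of the table was used. Both came from the cultivar "SJM" (sijimi), with no treatment, mutation or transgene in either. The other 7 libraries were root, stem, leaf, flower bud, flower, pericarp and seed, and their values stand beside those of the genes named here. Neither the labels nor the methods give the age of the young fruit in days or say which fruit parts its RNA was taken from. With 1 library per tissue there were no replicates, so all differences below describe a pair of libraries, without a test, and how much of a difference would recur in other fruits was not measured.

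The edible pulp of longan is an aril, a fleshy layer that grows from the base of the seed and comes to lie between the seed and the thin peel, the pericarp. A young fruit is still building its peel, seed and vascular strands, while the pulp of the ripe fruit stores sugar. Much of the difference between plant organs is set by transcription factors (TFs), proteins that bind DNA and turn other genes up or down. Plants have large TF families, and members of a family often share a process, such as WRKY proteins in defense, ERF proteins in ethylene and stress responses, and TCP or GRF proteins in organ growth.

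Expression was given as FPKM, the fragments on a gene scaled to the length of the gene and to the number of mapped fragments, for 30014 genes. Pulp had fewer genes with signal. It had 15052 genes at 1 FPKM or more, against 18779 genes in young fruit, and 10692 genes were listed at 0 in pulp, against 7277 in young fruit. The median gene stood at 1.02 FPKM in pulp and at 4.15 FPKM in young fruit. Low FPKM values come in steps of 1 fragment, and the commonest ratio of those steps put the depth of the pulp library at 83.8% of that of young fruit. Of the genes at 10 FPKM or more in each of the other 8 libraries, 30 were listed at 0 in pulp and 2 in young fruit, so a value of 0 is given here as listed and not as absence. In bulk tissue, fewer cells of a type and less RNA per cell cannot be told apart.

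A gene was counted as higher or lower when the ratio of FPKM + 1 between pulp and young fruit was at least 2-fold. By this rule 2615 genes were higher in pulp, which is 8.71% of all genes, and 8685 were lower, which is 28.9%. The lower genes made up 76.9% of the 11300 genes that differed. Among genes at 1 FPKM or more in both libraries, the median ratio of pulp to young fruit was -0.48 on the log2 scale. After the pulp values were divided by this ratio, 3943 genes (13.1%) were higher and 7117 (23.7%) lower, and the lower genes made up 64.3%. The excess of lower genes was therefore smaller on the scaled values, and the counts of both scales are given wherever they differ in direction.

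On the unscaled values the direction depended on the level of the gene. Of the 10078 genes whose higher value lay between 10 and 100 FPKM, 11.0% were higher in pulp and 41.2% lower. Of the 143 genes that reached 1000 FPKM in either library, 76 were higher in pulp and 38 lower, with a median log2 difference of 1.12. Of the 2379 genes between 100 and 1000 FPKM, 26.0% were higher and 32.5% lower, with a median of -0.14. The genes at the top of the range were thus more often higher than lower in pulp, and those between 1 and 1000 FPKM more often lower than higher. The counts by level were not made on the scaled values. The median of -0.14 between 100 and 1000 FPKM lies above the -0.48 used for scaling, so that direction may turn with the scale. The 100 highest genes held 32.3% of the total FPKM in pulp and 19.7% in young fruit, and 50% of the total was reached with 409 genes in pulp and 1027 in young fruit. The highest gene of pulp, for which the sources used here give no annotation, stood at 29080 FPKM in pulp and 2100 FPKM in young fruit. No gene was among the 10 highest of both libraries, and 32 genes were among the 100 highest of both.

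**Figure D1:**
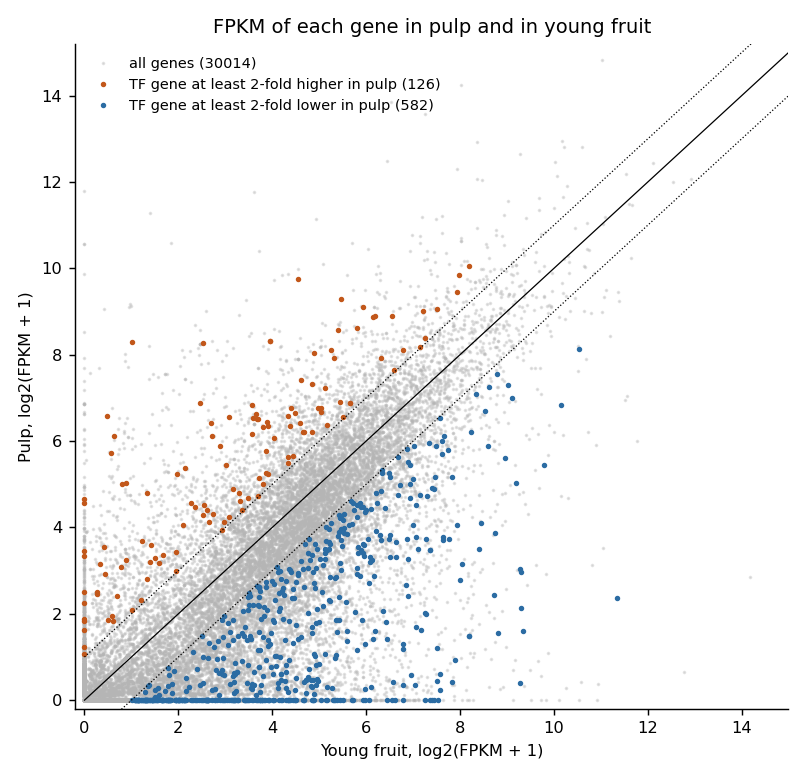
Each point is a gene, with its level in pulp on the vertical axis and in young fruit on the horizontal axis, both as log2(FPKM + 1). Grey points are all 30014 genes, orange points the 126 TF genes at least 2-fold higher in pulp, and blue points the 582 TF genes at least 2-fold lower. The solid line marks equal values and the dotted lines a 2-fold difference. Many of the blue points lie on the horizontal axis, where pulp is listed at 0.

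Transcription factor genes were lower in pulp more often than genes at large. The study lists 1611 TF genes in 64 types, of which 1529 are in the expression table. Of these, 126 (8.24%) were higher in pulp, against 8.71% of all genes, and 582 (38.1%) were lower, against 28.9% of all genes. The summed FPKM of the TF genes was 3.56% of the pulp total and 5.96% of the young fruit total. In pulp 714 TF genes reached 1 FPKM, the fewest of the 9 libraries, while young fruit had 1014. On the scaled values 184 TF genes were higher and 517 lower. At a 4-fold limit 62 TF genes were higher in pulp and 347 lower, where the whole table had 3.40% higher and 13.8% lower. At a 16-fold limit 13 TF genes were higher in pulp and 118 lower, where the whole table had 0.646% higher and 3.21% lower.

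Of the 32 types with at least 10 genes, all had more genes lower than higher in pulp. On the scaled values this held for 31 of them, the exception being C3H, a family of zinc finger proteins many of which bind RNA, with 9 genes higher and 7 lower. The types differed widely around the shares of the whole table. FAR1 had 68.4% of its genes lower, WRKY 64.9%, Tify 61.5% and C2C2-Dof 60.9%, and of these 4 types only Tify had a gene that was higher. The M-type genes had the smallest share lower, 10.8%, and 4 of their 65 genes reached 1 FPKM in pulp, against 9 in young fruit. Only genes at 1 FPKM or more in young fruit can be counted as lower, and 7 M-type genes were.

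**Figure D2:**
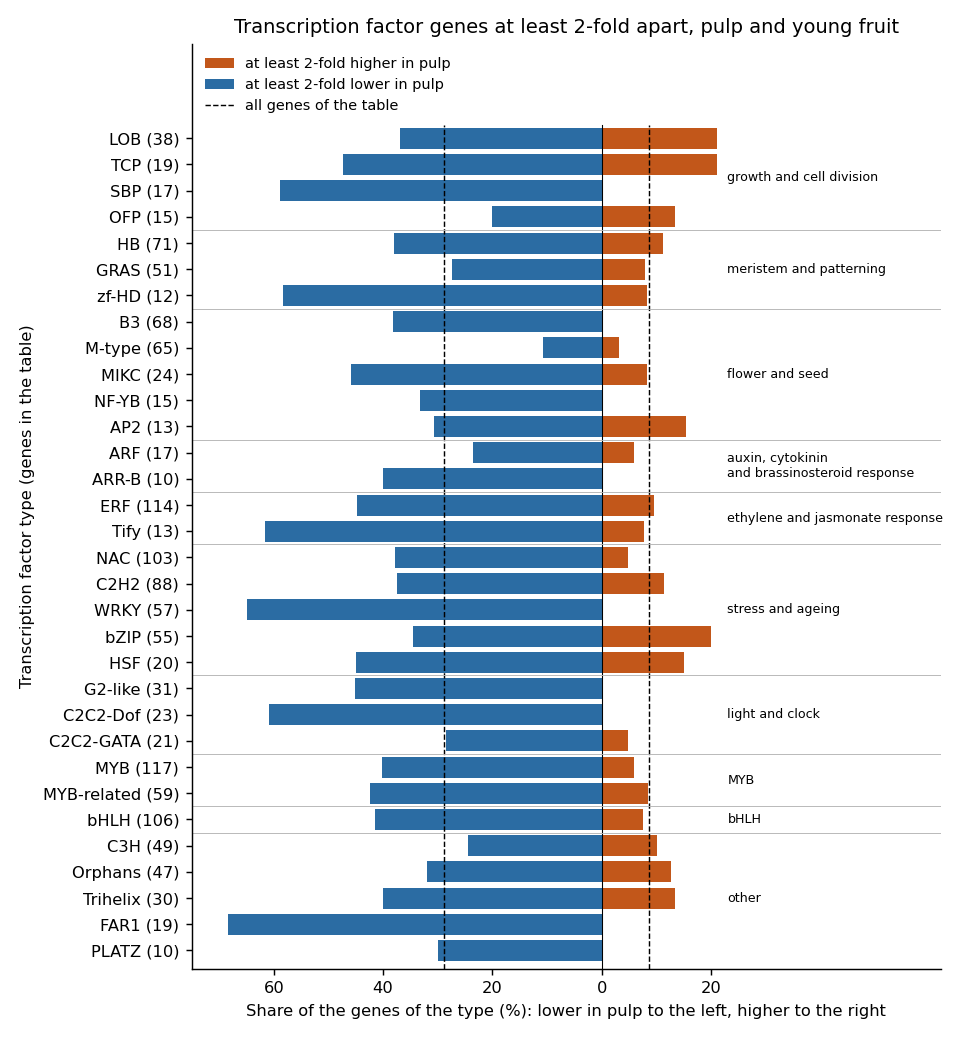
Bars to the right give the share of genes of each TF type that were at least 2-fold higher in pulp, bars to the left the share at least 2-fold lower, both in percent, for the 32 types with 10 genes or more (number of genes in parentheses). Dashed lines mark the shares over all genes, 8.71% and 28.9%. The left bars exceed the right bars in every type shown, and WRKY, FAR1, SBP, C2C2-Dof, B3, G2-like, ARR-B, NF-YB and PLATZ have no bar to the right.

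The types were read by the process they are best known for. The group of growth and cell division had the largest share of genes higher in pulp. It held 121 genes, of which 25 (20.7%) were higher in pulp and 38 (31.4%) lower. Its summed FPKM was 2318 in pulp and 1854 in young fruit. With a pair of LOB genes that share the same values counted once, it was 1999 in pulp and 1839 in young fruit. Without the pair it was 1679 in pulp and 1825 in young fruit. Within it the types went different ways. SBP genes, which in Arabidopsis drive the change from juvenile to adult growth, had 0 genes higher and 10 of 17 lower. TCP genes, regulators of cell proliferation in leaves and flowers, had 4 of 19 higher and 9 lower. LOB genes, which act at organ boundaries and in lateral organs, had 8 of 38 higher and 14 lower, and their summed FPKM was 941 in pulp and 469 in young fruit. That order held with the pair counted once (621.7 FPKM in pulp, 454.7 FPKM in young fruit). It turned without the pair (302.4 FPKM in pulp, 440.2 FPKM in young fruit).

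The 5 small types of this group, with under 10 genes each, were mostly not lower. Together GRF, C2C2-YABBY, E2F-DP, SRS and CPP had 32 genes, of which 19 lay within 2-fold. Of the 32 genes, 11 (34.4%) were higher in pulp and 2 (6.25%) lower, against 8.71% and 28.9% of all genes. These types and the genes named from them were picked out after their values were seen. E2F-DP proteins switch on the genes for DNA synthesis at the start of the cell cycle, and 3 of the 4 E2F-DP genes were higher in pulp. Dlo_032462.1 had 85.3 FPKM in pulp and 13.8 FPKM in young fruit, a log2 difference of 2.55, and its other libraries lay between 12.7 FPKM in seed and 24.1 FPKM in root. Dlo_012375.1 had 11.8 FPKM in pulp and 1.33 FPKM in young fruit. The pulp value of Dlo_032462.1 thus stood above all other libraries, while Dlo_012375.1 was higher still in root, at 20.6 FPKM.

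CPP proteins have relatives in animals that take part in cell cycle complexes. Of 8 CPP genes 3 were higher in pulp and 0 lower, with a median log2 difference of 0. Dlo_008713.1 had 7.84 FPKM in pulp, 0.26 FPKM in young fruit and at most 2.16 FPKM, in root, elsewhere. Dlo_033206.1 had 7.44 FPKM in pulp and 0.71 FPKM in young fruit. GRF proteins promote cell number in leaves and other organs. Of 9 GRF genes 2 were higher and 0 lower, with a median of -0.16. Dlo_004446.1, of this type, had 53.6 FPKM in pulp, 13.7 FPKM in young fruit, 17.5 FPKM in pericarp and 10.2 FPKM in seed. SRS proteins act in auxin production and style growth in Arabidopsis, and 2 of 5 SRS genes were higher and 0 lower. The SRS gene Dlo_021471.1 had 80.0 FPKM in pulp and 19.7 FPKM in young fruit. YABBY proteins mark the outer face of lateral organs and shape ovule coats, and 1 of 6 C2C2-YABBY genes was higher and 2 lower. Here Dlo_010752.1 had 273.8 FPKM in pulp and 37.2 FPKM in young fruit, whereas Dlo_027352.1 had 25.4 FPKM in pulp and 156.8 FPKM in young fruit, so members of this type stood on opposite sides.

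Genes of meristem and patterning were lower in pulp at a share near the 38.1% of all TF genes. They had 13 of 138 higher and 48 (34.8%) lower. HB genes, the homeobox family, had 8 of 71 higher and 27 lower. GRAS genes, which include the DELLA repressors of gibberellin response, had 4 of 51 higher and 14 (27.5%) lower. The type zf-HD had 7 of 12 genes lower and 1 higher, and that gene, Dlo_026831.1, decided the sum of the type. It had 630.2 FPKM in pulp and 42.9 FPKM in young fruit, while the other 11 genes summed to 48.2 FPKM in pulp and 124.0 FPKM in young fruit. Dlo_026831.1 was also high in flower, at 266.1 FPKM, and listed at 0 in stem.

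The flower and seed group had 8 of 203 genes (3.94%) higher in pulp and 62 (30.5%) lower, near the 28.9% of all genes. Its MADS-box genes are split into the M-type, known mostly from the female gametophyte and endosperm, and the MIKC type, which sets floral organ identity and takes part in fruit ripening. MIKC genes had 2 of 24 higher and 11 lower. The MIKC gene with the largest negative difference, Dlo_003537.1, had 3.38 FPKM in pulp, 626.0 FPKM in young fruit and 1241 FPKM in pericarp. The MIKC gene with the largest positive difference, Dlo_026285.1, had 472.8 FPKM in pulp, 92.5 FPKM in young fruit and 762.8 FPKM in seed. In root, stem and leaf Dlo_026285.1 was listed at 0, so its signal came mainly from seed, pulp and young fruit.

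B3 genes, a family with auxin, abscisic acid and seed maturation regulators, had 0 of 68 higher and 26 (38.2%) lower. Over all TF genes 38.1% were lower. NF-YB genes, subunits of a factor that binds the CCAAT box, had 0 of 15 higher and 5 (33.3%) lower. AP2 genes, which act in flower and seed growth, had 2 of 13 higher and 4 lower. On the scaled values 4 of the B3 genes were higher and 20 lower.

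Among the factors of hormone response, those of ethylene and jasmonate were lower in pulp more often than genes at large. This group had 12 of 131 genes higher and 61 (46.6%) lower. Tify genes, most of them JAZ repressors of jasmonate response, had 1 of 13 higher and 8 lower, with 461 FPKM in pulp and 2561 FPKM in young fruit over the type. Dlo_023118.1, the Tify gene with the largest negative difference among those above 0 in both libraries, had 42.5 FPKM in pulp, the lowest of the 9 libraries, and 886.8 FPKM in young fruit. Dlo_013514.1, the Tify gene that was higher, had 91.4 FPKM in pulp and 11.0 FPKM in young fruit. ERF genes, the ethylene response factors, had 11 of 114 higher and 51 lower. Of the 34 genes of auxin, cytokinin and brassinosteroid response, 2 were higher and 9 (26.5%) lower, a share below the 28.9% of all genes, and the scaled values gave 6 higher and 8 lower. Auxin response factors (ARF) had a median log2 difference of -0.05, which turned to 0.39 on the scaled values.

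Among the factors of stress and ageing, 29 of 323 genes were higher in pulp and 137 (42.4%) lower. WRKY genes stood out, with 0 of 57 higher and 37 lower, a median log2 difference of -1.69, and a summed FPKM of 543 in pulp against 4803 in young fruit. Scaling left 2 WRKY genes higher and 35 lower. NAC genes, with roles in ageing, cell wall thickening and fruit ripening, had 5 of 103 higher and 39 (37.9%) lower. All TF genes had 38.1% lower. HSF genes, which respond to heat, had 3 of 20 higher and 9 (45%) lower. C2H2 zinc finger genes had 10 of 88 higher and 33 (37.5%) lower. The bZIP genes had the smallest share lower in this group. They had 11 of 55 higher and 19 (34.5%) lower, and on the scaled values 14 higher and 15 lower.

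Light and clock factors had 1 of 82 genes higher in pulp and 38 (46.3%) lower. G2-like genes, among them the GLK factors that build chloroplasts in Arabidopsis, had 0 of 31 higher and 14 lower. C2C2-Dof genes, which act in vascular tissue, seeds and day-length response, had 0 of 23 higher and 14 lower, a median log2 difference of -1.78 that belonged to a gene listed at 0 in pulp. The C2C2-GATA gene Dlo_021460.1 was the exception in this group, with 91.0 FPKM in pulp and 11.7 FPKM in young fruit.

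The MYB and bHLH families regulate phenolic compounds, cell shape and many other traits, often as partners in a complex. Of 117 MYB genes 7 were higher in pulp and 47 (40.2%) lower, and of 59 MYB-related genes 5 were higher and 25 (42.4%) lower. Over all TF genes the share lower was 38.1%. The MYB-related genes summed to 2411 FPKM in pulp and 1485 FPKM in young fruit. Dlo_012387.1 had 1061 FPKM in pulp, the highest value of any TF gene there, and 290.5 FPKM in young fruit. Dlo_025451.1, also MYB-related, had 552.8 FPKM in pulp and 60.4 FPKM in young fruit, and without these genes the sum was 796.6 FPKM in pulp and 1134 FPKM in young fruit. Of 106 bHLH genes 8 were higher and 44 lower, and their sum was 1442 FPKM in pulp and 5923 FPKM in young fruit, or 1438 FPKM in pulp and 3313 FPKM in young fruit without Dlo_015630.1. Dlo_000274.1 had the largest positive difference of the bHLH genes, with 84.1 FPKM in pulp and 5.51 FPKM in young fruit.

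The TF genes with the largest differences above 0 in both libraries were set out for all 9 tissues. Of the 12 with the largest positive difference, a pair of LOB genes, Dlo_000883.1 and Dlo_033087.1, had the same value in every library, and of the 12 with the largest negative difference, the NAC genes Dlo_006568.1 and Dlo_010076.1 did. Near-identical gene copies can receive the same reads, and each pair is read here as 1 measurement, which leaves 11 measurements each way. Among genes above 0 in 3 or more libraries, 1021, of which 24 were TF genes, shared all 9 values with another gene.

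The largest positive difference was that of Dlo_011483.1, an M-type MADS-box gene. It had 315.9 FPKM in pulp, 1.03 FPKM in young fruit and 12.5 FPKM in seed, and under 1 FPKM in the 6 other libraries, a log2 difference of 7.29 for pulp over young fruit. Another M-type gene, Dlo_019293.1, followed the same order of fruit tissues, with 68.6 FPKM in pulp, 0.55 FPKM in young fruit, 6.33 FPKM in seed and 0.23 FPKM in pericarp. Pulp was thus the only library in which these genes were abundant, and seed came next. The M-type sum, 395 FPKM in pulp and 78.8 FPKM in young fruit, came largely from Dlo_011483.1, and without it was 79.3 FPKM in pulp and 77.8 FPKM in young fruit.

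Among the genes higher in pulp were 3 ERF genes. Dlo_030328.1 had 869.2 FPKM in pulp, 22.3 FPKM in young fruit, 132.4 FPKM in seed and 13.2 FPKM in pericarp, and at most 5.68 FPKM, in root, outside the fruit. Dlo_017388.1 had 51.8 FPKM in pulp and 0.49 FPKM in young fruit, but also 39.7 FPKM in flower. Dlo_013715.1 had 31.4 FPKM in pulp and 0.75 FPKM in young fruit, with 17.6 FPKM in pericarp. Of these 3, Dlo_030328.1 was low in all libraries but pulp and seed, while the others had signal in most libraries. The NAC gene Dlo_011150.1 had 117.0 FPKM in pulp, 4.54 FPKM in young fruit, 57.6 FPKM in flower and 48.7 FPKM in flower bud.

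The Trihelix gene and the LOB pair were higher in pericarp than in pulp. Trihelix proteins bind GT-rich elements and act in light response and organ growth, and Dlo_002457.1 had 306.2 FPKM in pulp, 4.75 FPKM in young fruit and 607.5 FPKM in pericarp. The LOB pair had 319.3 FPKM in pulp, 14.5 FPKM in young fruit and 1058 FPKM in pericarp (Dlo_000883.1). In both cases young fruit was the lowest library or next to it. A further LOB gene, Dlo_002357.1, had 31.7 FPKM in pulp and 0.85 FPKM in young fruit, with 27.1 FPKM in seed. Dlo_028846.1, of the Orphans type, a class for regulators outside the named families, had 94.9 FPKM in pulp, 0.40 FPKM in young fruit and 8.56 FPKM in root. Of the 11 measurements, 9 had their highest value in pulp, a rank that follows in part from the choice by pulp over young fruit.

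The TF genes with the largest negative differences stood at 4.17 FPKM or less in pulp and between 181.8 and 2610 FPKM in young fruit. The bHLH gene Dlo_015630.1 was the highest TF gene of young fruit, at 2610 FPKM, and had 4.17 FPKM in pulp, a log2 difference of -8.98. It was also high in leaf (942.1 FPKM) and stem (445.4 FPKM) and reached 149.2 FPKM in pericarp and 9.74 FPKM in seed. A further pair of bHLH genes was more restricted. Dlo_010846.1 had 0.31 FPKM in pulp and 620.1 FPKM in young fruit, and its next highest value was 37.7 FPKM in leaf. Dlo_000515.1 had 0.18 FPKM in pulp, 190.9 FPKM in young fruit, 84.2 FPKM in root and 2.49 FPKM in pericarp, and was listed at 0 in leaf.

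Several of these genes were abundant in the peel. The ERF gene Dlo_007316.1 had 2.04 FPKM in pulp, 646.3 FPKM in young fruit and 1109 FPKM in pericarp. The WRKY gene Dlo_030713.1 had 1.95 FPKM in pulp, 450.4 FPKM in young fruit and 758.1 FPKM in pericarp, but 4.06 FPKM in seed. Together with the MIKC gene Dlo_003537.1 they were higher in young fruit and peel than in pulp and seed. They were not confined to the fruit. In stem the WRKY gene had 559.5 FPKM, above its young fruit value, the ERF gene had 483.7 FPKM and Dlo_003537.1 had 105.0 FPKM. In leaf they had 313.3, 190.8 and 143.0 FPKM, in that order. The second WRKY gene, Dlo_000299.1, had 0.35 FPKM in pulp, 181.8 FPKM in young fruit and 533.8 FPKM in leaf.

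The remaining genes had signal in every library, with pulp far below the rest. The GRAS gene Dlo_029937.1 had 0.33 FPKM in pulp and 227.9 FPKM in young fruit, and 3.65 FPKM in seed was its next lowest value. The C2H2 gene Dlo_023911.1 had 0.53 FPKM in pulp and 191.1 FPKM in young fruit, and at least 30.9 FPKM, in root, elsewhere. The HSF gene Dlo_000252.1 had 0.91 FPKM in pulp and 237.5 FPKM in young fruit, and 55.2 FPKM in seed was its next lowest value. The NAC pair had 1.81 FPKM in pulp, 291.2 FPKM in young fruit and at least 31.2 FPKM elsewhere (Dlo_006568.1). Pulp was the lowest of the 9 libraries in 9 of the 11 measurements, and pericarp and seed were above pulp in all 11. These genes were chosen for low pulp against young fruit, so the low rank of pulp follows in part from the choice. Over all TF genes with signal in any library, pulp was below each other library for 389 of 1487, and young fruit for 39. Over all genes with signal in any library these numbers were 6101 of 28598 and 627, so low values in pulp were not particular to TF genes.

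**Figure D3:**
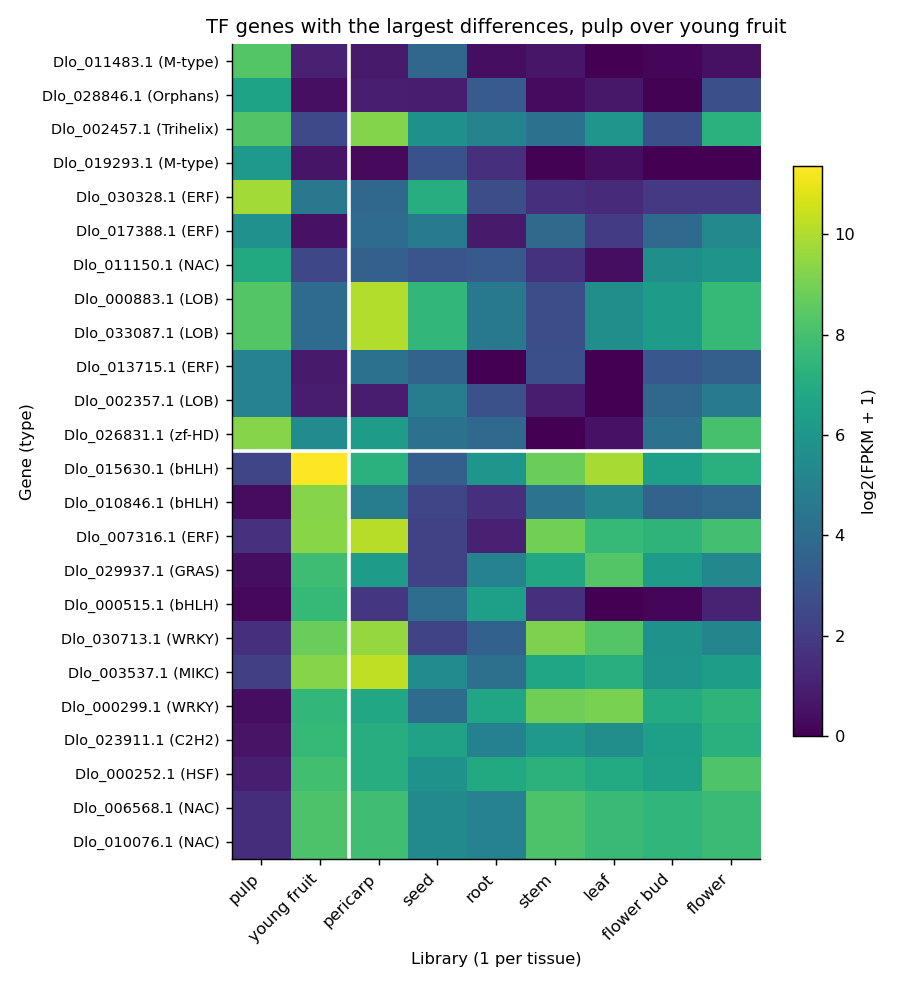
Rows are the 12 TF genes with the largest positive difference of pulp over young fruit (above the horizontal white line) and the 12 with the largest negative difference (below it), each with its type, and columns are the 9 libraries, with pulp and young fruit at the left. Color gives log2(FPKM + 1). The genes above the line are mostly brightest in pulp, apart from the Trihelix gene and the LOB pair, which are brightest in pericarp, and the genes below it are dark in pulp and brighter in most other libraries.

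Some TF genes were listed at 0 in pulp or in young fruit. At 10 FPKM or more in young fruit, 64 TF genes were listed at 0 in pulp, and at 10 FPKM or more in pulp, 3 were listed at 0 in young fruit. Over all genes these numbers were 557 and 69. The highest of those listed at 0 in pulp were the Tify genes dlo_036449.1, at 184.3 FPKM in young fruit and 281.6 FPKM in leaf, and Dlo_029238.1, at 168.7 FPKM in young fruit and 262.9 FPKM in stem. Between them stood the ERF gene Dlo_028757.1, at 173.8 FPKM in young fruit and 7.24 FPKM in pericarp, also listed at 0 in seed and root. The highest listed at 0 in young fruit were the C2H2 gene Dlo_016754.1, at 24.3 FPKM in pulp and 9.55 FPKM in seed, the LOB gene Dlo_032831.1, at 22.7 FPKM in pulp and 287.9 FPKM in flower bud, and the C2H2 gene Dlo_015569.1, at 10.1 FPKM in pulp and 7.70 FPKM in root. The Tify genes listed at 0 in pulp joined Dlo_023118.1 in being high in leaf and stem. Of the genes listed at 0 in young fruit, Dlo_016754.1 and Dlo_015569.1 had their highest value in pulp and Dlo_032831.1 in flower bud.

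The most abundant TF genes of each library were different genes. In pulp these were the MYB-related gene Dlo_012387.1 (1061 FPKM), the ERF genes Dlo_019916.1 (919.7 FPKM), Dlo_030328.1 (869.2 FPKM) and Dlo_025226.1 (697.2 FPKM), and the zf-HD gene Dlo_026831.1 (630.2 FPKM). In young fruit Dlo_019916.1 had 250.2 FPKM and Dlo_025226.1 had 244.7 FPKM. Dlo_019916.1 was not particular to pulp, with 964.2 FPKM in pericarp and 1107 FPKM in flower. In young fruit the bHLH gene Dlo_015630.1 was followed by the PLATZ gene Dlo_016733.1 (282.0 FPKM in pulp, 1477 FPKM in young fruit), the WRKY gene Dlo_001658.1 (112.7 FPKM in pulp, 1141 FPKM in young fruit), the ERF gene Dlo_018830.1 (557.1 FPKM in pulp, 977.0 FPKM in young fruit) and the Tify gene Dlo_023118.1. Of these only Dlo_018830.1 stayed within 2-fold, with a log2 difference of -0.81.

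Genes other than TFs could be read only where the study annotated them. Protein domains and best matches were given for genes that carry sequence differences in other longan cultivars, so the lists made from them are partial and hold a few members of each pathway. Of 672 such genes 663 are in the table. In pulp 47 of them (7.09%) were higher and 236 (35.6%) lower, where the whole table had 8.71% and 28.9%. On the scaled values 75 were higher and 173 lower.

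The list of cell division and DNA replication was the only list with more genes higher than lower on the unscaled values, and on the scaled values protein breakdown was another. Of its 16 genes 3 were higher in pulp and 2 lower, against 4 and 2 on the scaled values, and its median log2 difference was -0.03, where all genes had -0.20. The genes named from it, and from the lists that follow where they are not among the 8 annotated genes with the largest difference either way, were picked after their values were seen. Dlo_022738.1, annotated as Mcm2, a subunit of the helicase that opens DNA for replication, had 32.4 FPKM in pulp and 11.3 FPKM in young fruit, above the 6.13 FPKM of pericarp and 8.56 FPKM of seed. Dlo_005115.1, a subunit of condensin, which packs chromosomes for division, had 7.50 FPKM in pulp, 0.38 FPKM in young fruit and 7.06 FPKM in root. Dlo_000639.2, a type IA topoisomerase, had 6.27 FPKM in pulp and 0.39 FPKM in young fruit. The 2 lower genes, Dlo_012525.1 and Dlo_032086.4, are kinesins with 3.76 and 4.75 FPKM in pulp and 14.4 and 16.8 FPKM in young fruit. Of the 17 chromatin proteins 1 (5.88%) was higher and 6 (35.3%) lower, near the 7.09% and 35.6% of annotated genes. The higher gene was the histone H2A Dlo_023932.1, with 163.9 FPKM in pulp, 31.7 FPKM in young fruit, 9.62 FPKM in pericarp and 132.4 FPKM in root.

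Of the 26 cell wall and carbohydrate enzymes, 1 (3.85%) was higher in pulp, 13 (50%) were lower and 12 lay within 2-fold. Annotated genes at large had 7.09% higher and 35.6% lower. On the scaled values 2 of the enzymes were higher and 10 lower. Dlo_009079.1, a beta-glucosidase of glycoside hydrolase family 1, was the higher gene, with 159.3 FPKM in pulp, 13.9 FPKM in young fruit and at most 18.6 FPKM, in pericarp, elsewhere. The expansin Dlo_032029.1, of a family that loosens growing cell walls, had 1.21 FPKM in pulp and 34.7 FPKM in young fruit, and 194.5 FPKM in root. Dlo_033645.1, a cellulose synthase, had 3.42 FPKM in pulp and 40.9 FPKM in young fruit. The pectinesterase Dlo_021909.1, which alters pectin, had 27.3 FPKM in pulp and 139.6 FPKM in young fruit. The invertase Dlo_023358.1, which splits sucrose, was low in each, with 1.63 FPKM in pulp and 5.72 FPKM in young fruit.

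The list of phenolic and carotenoid enzymes had 1 of 10 genes (10%) higher in pulp and 4 (40%) lower. These shares lay near those of annotated genes at large, 7.09% and 35.6%. Dihydroflavonol reductase (DFR) leads to anthocyanins and condensed tannins, and both annotated copies were lower. Dlo_024800.1 had 0.54 FPKM in pulp, 26.9 FPKM in young fruit and at most 1.97 FPKM in the other fruit tissues. Dlo_025848.1 had 0.18 FPKM in pulp, 11.8 FPKM in young fruit and 540.7 FPKM in root. Cinnamate 4-hydroxylase, an early step of phenolic synthesis, was annotated for Dlo_002085.1, a gene of the cytochrome P450 list, with 107.1 FPKM in pulp and 242.4 FPKM in young fruit, a log2 difference of -1.17 that lay within 2-fold after scaling (-0.69). The genes annotated as 4-coumarate-CoA ligase, the step after it, stood on opposite sides. Dlo_030106.1 had 90.9 FPKM in pulp and 20.1 FPKM in young fruit, while Dlo_020295.1 had 2.08 FPKM in pulp and 7.73 FPKM in young fruit. The remaining lower gene of the list matches a carotenoid enzyme but carries a lipase domain.

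Cytochrome P450 genes, oxygenases of many plant compounds, had 1 of 12 (8.33%) higher in pulp and 8 (66.7%) lower. Annotated genes at large had 7.09% higher and 35.6% lower. Dlo_020565.1 had 0.63 FPKM in pulp and 73.8 FPKM in young fruit, and Dlo_020572.1 had 0.13 FPKM in pulp and 32.3 FPKM in young fruit. The higher gene, Dlo_031754.1, is annotated as abscisic acid 8'-hydroxylase, which breaks down abscisic acid, a hormone of ripening and stress. It had 9.78 FPKM in pulp and 0.82 FPKM in young fruit, was highest in flower at 44.9 FPKM, and was listed at 0 in pericarp, seed and leaf. The other gene with that annotation, Dlo_001160.1, had 0.41 FPKM in pulp and 1.96 FPKM in young fruit, with 32.3 FPKM in pericarp. The fruit library with the most signal was thus pulp for Dlo_031754.1 and pericarp for Dlo_001160.1. In the wider list of hormone pathways 1 of 18 genes (5.56%) was higher and 6 (33.3%) lower, near the shares of annotated genes. Among the lower was the gibberellin receptor GID1 gene Dlo_032487.1, with 2.90 FPKM in pulp and 11.9 FPKM in young fruit.

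Photosynthesis genes were listed as markers of green tissue, but with 6 genes the list was too small to serve as a check of it. Of the 6 genes 1 was higher in pulp and 4 (66.7%) lower, where annotated genes at large had 35.6% lower. Dlo_000983.1, the PsbP protein of photosystem II, had 4.15 FPKM in pulp, 60.5 FPKM in young fruit, 115.0 FPKM in leaf and 123.1 FPKM in seed. The light-harvesting gene Dlo_012937.1 had 0.47 FPKM in pulp and 2.39 FPKM in young fruit. The higher gene, Dlo_023154.3, is annotated as protoporphyrinogen oxidase, an enzyme of heme and chlorophyll synthesis, with 51.7 FPKM in pulp and 20.7 FPKM in young fruit. No marker of the aril is annotated in the sources used here, so the pulp label itself could not be checked.

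Among receptors and transporters few genes were higher in pulp, as among annotated genes at large, where 7.09% were higher and 35.6% lower. Of 61 protein kinases 3 (4.92%) were higher and 23 (37.7%) lower, near those shares. Of 16 S-locus and lectin receptor kinases 0 were higher and 8 (50%) lower. Of 24 NB-ARC proteins, the intracellular immune receptors of plants, 1 was higher and 13 (54.2%) lower. The kinase Dlo_033489.1 was far above the rest, with 362.0 FPKM in pulp, 13.2 FPKM in young fruit and at most 21.1 FPKM, in seed, elsewhere. At the other end the S-locus kinase Dlo_011255.1 had 0.05 FPKM in pulp and 50.2 FPKM in young fruit, and the kinase Dlo_032138.2 had 0.61 FPKM in pulp and 66.7 FPKM in young fruit. Of 12 ABC transporters 0 were higher and 6 (50%) lower. Of 25 genes in the list of other solute transport 0 were higher and 12 (48%) lower. That list does not hold all transporters, and Dlo_017519.1 and Dlo_015351.1, described with the genes outside the lists, were higher in pulp. The ABC transporter Dlo_003793.1 was listed at 0 in pulp and had 101.7 FPKM in young fruit. The peptide transporter family gene Dlo_012423.1 had 0.51 FPKM in pulp, 42.3 FPKM in young fruit and 478.0 FPKM in leaf, and its relative Dlo_026281.1 had 2.84 FPKM in pulp and 80.7 FPKM in young fruit.

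**Figure D4:**
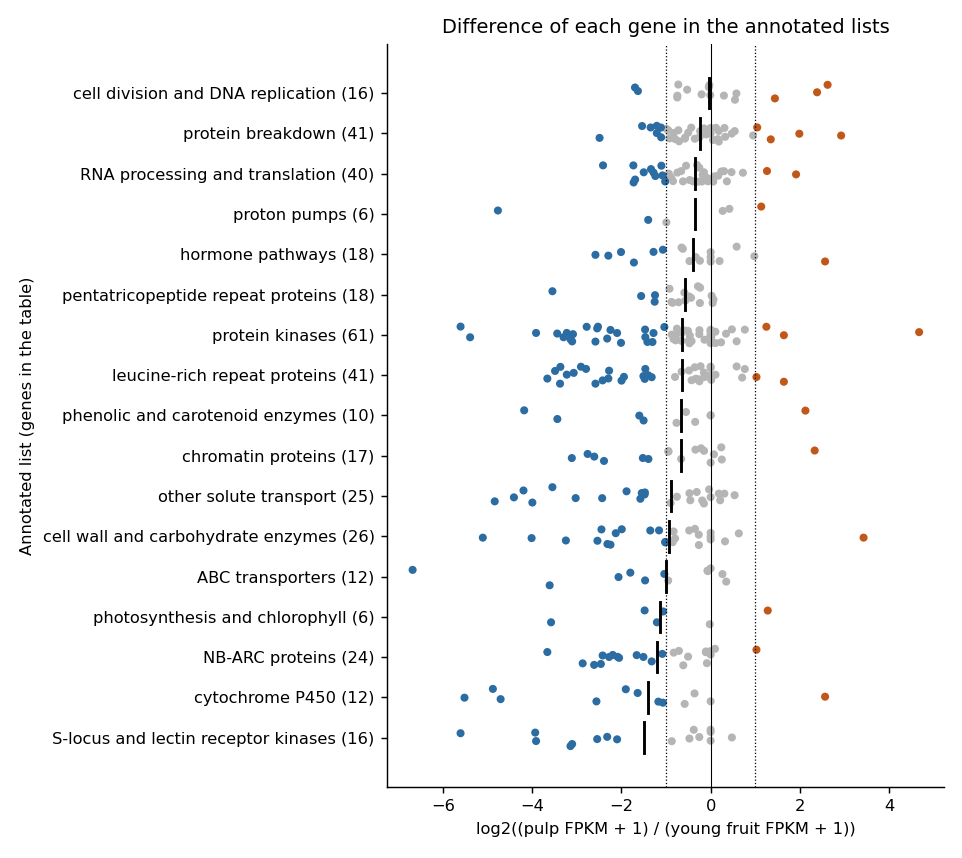
Each point is a gene of an annotated list, placed by its log2((pulp FPKM + 1)/(young fruit FPKM + 1)) and spread vertically within its row. For genes listed at 0 in a library the place is set by the 1 FPKM added. Black bars mark the median of the list, dotted lines a 2-fold difference, and colors genes at least 2-fold higher (orange) or lower (blue) in pulp. Lists run from cell division and DNA replication (median -0.03) at the top to S-locus and lectin receptor kinases (median -1.49) at the bottom.

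Housekeeping lists had medians closer to 0 than the annotated genes at large (-0.56), but not closer than all genes (-0.20). RNA processing and translation had 2 of 40 genes higher and 11 (27.5%) lower, near the 28.9% of all genes. On the scaled values it had 3 higher and 5 lower with a median of 0.04. Protein breakdown had 4 of 41 higher and 7 (17.1%) lower. On the scaled values it had 6 higher and 2 lower, so its direction turned with the scaling. Proton pumps, which drive storage of acids and sugars in the vacuole, had 1 of 6 higher and 2 lower, and a scaled median of 0.11 against an unscaled median of -0.36. The pump gene higher in pulp, Dlo_002824.1, is annotated as subunit A of the vacuolar ATPase and had 362.9 FPKM in pulp and 164.7 FPKM in young fruit. Dlo_016381.1, annotated as subunit E, was listed at 0 in pulp and had 26.3 FPKM in young fruit.

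Outside these lists stood 5 of the 8 annotated genes with the largest positive difference. Dlo_018642.1, a copper amine oxidase, which breaks down polyamines and forms hydrogen peroxide, had 481.8 FPKM in pulp, 8.74 FPKM in young fruit, 79.9 FPKM in pericarp and 184.3 FPKM in flower. Dlo_007255.1 carries the domains of sieve element occlusion proteins, which plug the sugar-conducting sieve tubes on injury, and had 18.0 FPKM in pulp, 0.59 FPKM in young fruit and at most 1.13 FPKM, in flower bud, elsewhere. Dlo_017519.1, a permease for purines and related compounds, had 29.7 FPKM in pulp and 3.46 FPKM in young fruit. These genes had their highest value of the 9 libraries in pulp, a rank that follows in part from their choice by this difference. Dlo_015351.1, with a bicarbonate transporter domain of the kind found in plant borate exporters, had 103.0 FPKM in pulp and 8.24 FPKM in young fruit but 486.7 FPKM in flower bud. Dlo_009409.1, with a glyoxal oxidase domain, had 24.4 FPKM in pulp and 2.0 FPKM in young fruit but 330.9 FPKM in seed. The papain-type peptidase Dlo_017782.1, from the list of protein breakdown, had 28.8 FPKM in pulp and 2.92 FPKM in young fruit but 1215 FPKM in seed.

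Among the 8 annotated genes with the largest negative difference were also proteins of other kinds. Dlo_028939.1, an ankyrin repeat protein, had 3.87 FPKM in pulp and 208.9 FPKM in young fruit, and 523.0 FPKM in stem. Dlo_033537.3, an anoctamin, a family of membrane proteins that includes ion channels in animals, had 1.14 FPKM in pulp, 69.1 FPKM in young fruit and 72.4 FPKM in seed. Dlo_000052.1, with a CRAL-TRIO lipid-binding domain, had 1.92 FPKM in pulp and 85.2 FPKM in young fruit. All 8 had their lowest value of the 9 libraries in pulp, which follows in part from their choice by low pulp against young fruit. Larger differences occurred among genes with no annotation in the sources used here. Dlo_019404.1 had 2497 FPKM in pulp and 1.65 FPKM in young fruit, and dlo_038884.1 had 1537 FPKM in pulp and 2.57 FPKM in young fruit. Dlo_019805.1 had 0.57 FPKM in pulp and 6978 FPKM in young fruit, and Dlo_019810.1 had 6.27 FPKM in pulp and 18537 FPKM in young fruit, where it was the highest gene of the library.

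The genes of other organs were then followed into pulp and young fruit. For each of the 7 other libraries, a gene was taken as enriched at 10 FPKM or more and at 10 times the level (FPKM + 1) of each of the other 6, so that neither pulp nor young fruit took part in the choice. The 32 leaf-enriched genes summed to 109.3 FPKM in pulp, or 0.554% of their sum in leaf, and to 2873 FPKM in young fruit, or 14.6%. Without the 2 highest genes of each library these sums were 39.1 FPKM in pulp and 943.6 FPKM in young fruit. None of them was higher in pulp and 16 were lower, where the whole table had 8.71% of genes higher and 28.9% lower. The 231 seed-enriched genes summed to 3842 FPKM in pulp, or 2.11% of their sum in seed, and to 1207 FPKM in young fruit, or 0.662%, with 48 genes higher in pulp and 22 lower. Without the 2 highest genes of each library the sums were 2500 FPKM in pulp and 803.9 FPKM in young fruit. Of the 7 sets only that of seed had more genes higher than lower, and 116 of its genes were listed at 0 in pulp and 120 in young fruit.

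The 297 root-enriched genes went both ways by count and by sum. Of these, 21 were higher in pulp and 122 lower, where the whole table had 8.71% higher and 28.9% lower. In pulp 207 root-enriched genes were listed at 0, against 73 in young fruit. Their sum was nevertheless 41655 FPKM in pulp, 41.5% of that in root, and 2854 FPKM in young fruit. A pair of genes, with 19473 and 12148 FPKM in pulp, made up 31620 FPKM of this sum, and without the 2 highest genes it was 10035 FPKM in pulp and 2365 FPKM in young fruit. In the same way 1 gene, at 908.6 FPKM, made up nearly all of the 915.2 FPKM that the 18 stem-enriched genes had in young fruit, against 14.9 FPKM in pulp. The 13 pericarp-enriched genes had 7.67% of their pericarp sum in pulp and 6.37% in young fruit, and 2 genes held most of each sum. The part that tissue mixed in from other organs had in these values was not tested.

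**Figure D5:**
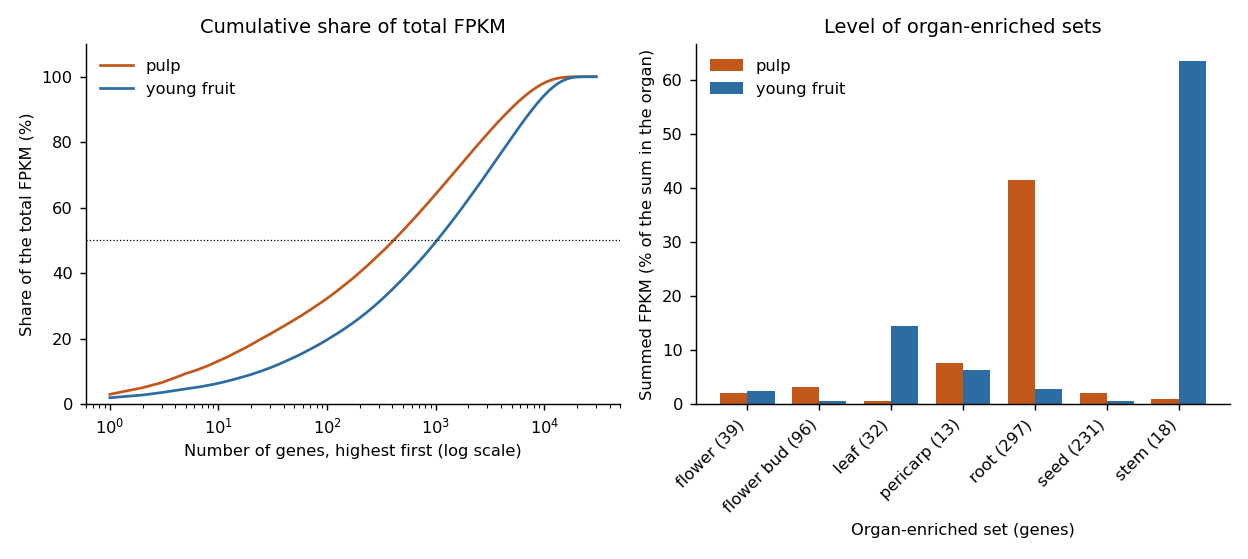
The left panel gives the share of the total FPKM (percent) held by the highest genes, counted along a log axis, in pulp (orange) and young fruit (blue), and pulp reaches 50% with 409 genes against 1027. The right panel gives the summed FPKM of the genes enriched in each of 7 other organs as a percentage of their sum in that organ, with the number of genes in parentheses. Pulp stands high for root genes (41.5%) and young fruit for leaf (14.6%) and stem genes (63.5%), but most of each of these sums came from 1 or 2 genes.

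Across the other tissues, the genes that differed were not confined to the fruit. The 582 TF genes lower in pulp had a median of 0.75 FPKM in pulp and 17.5 FPKM in young fruit, with 13.0 FPKM in pericarp, 6.61 FPKM in seed, 16.3 FPKM in stem and 11.9 FPKM in leaf. Of these genes 134 had their highest value in young fruit, 117 in root and 104 in leaf. The 126 TF genes higher in pulp had a median of 50.6 FPKM in pulp and 9.10 FPKM in young fruit, with 17.6 FPKM in pericarp and 19.1 FPKM in seed, and 63 of them had their highest value in pulp. Since both sets were chosen by pulp and young fruit, the levels in those libraries follow from the choice. A gene had to reach at least 1 FPKM in pulp to be higher or in young fruit to be lower. Genes without signal were thus left out, so the medians in the other 7 libraries depend in part on the choice too.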

How the data were processed

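RNA of each tissue was enriched for poly(A), sequenced on an Illumina HiSeq 2000 and aligned by the authors to the longan draft genome with TopHat2 2.0.10, after removal of adaptor, low-quality, organelle and ribosomal reads. The authors deposited FPKM values with 2 decimals, and the tool that made them is not given in the sources used here. Columns were assigned to tissues by name, and 0 value columns were left unused. A count model was not used and no counting interval is given, since FPKM do not hold the counts. Differences were computed as log2((pulp + 1)/(young fruit + 1)), which understates differences of genes with low FPKM and is set by the added 1 for genes listed at 0, and at least 2-fold was called higher or lower. Relative depth was the commonest ratio among genes under 2 FPKM in all libraries and above 0.2 FPKM in both (tolerance 0.03 on the log2 scale). TF types came from the study's list, domains from its annotation tables, and lists under 3 genes were left out.

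Genes named by rule were the 12 TF genes with the largest difference each way, the 3 highest TF genes listed at 0 in either library, the 8 annotated genes with the largest difference each way, the 5 highest TF genes of each library, the gene with the largest difference each way in each TF type with 10 genes or more (of which a selection is named), and 2 genes each way with no annotation. Except for those listed at 0, genes ranked by difference were above 0 in both libraries. Other genes of the small growth types and of the annotated lists were named after their values were seen. The comparison, the lists and these rules were chosen with earlier results of these data known. The functions were tested on simulated data. Alternatives were other pseudocounts, filters, scalings and a 4-fold limit. Python 3.11.15, numpy 2.4.6, pandas 2.3.3 and matplotlib 3.10.9 were used.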

Additional observations from a re-analysis of the deposited data

How the results depend on the processing

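No paired analysis was possible because only 1 library represents a tissue. With the 4-fold limit, 1019 genes were higher in pulp and 4140 lower (3.40% and 13.8% of all), as were 62 and 347 TF genes and 19 and 102 annotated genes. With 5 FPKM added in place of 1, 1701 genes were higher and 5161 lower, and 134 annotated genes were lower. With 0.1 FPKM added, 3857 genes were higher and 11770 lower. Dividing pulp by the median ratio gave 3943 higher genes and 75 higher annotated genes, and moved the share of lower genes among those that differed to 64.3% (all), 73.8% (TF) and 69.8% (annotated), against 76.9%, 82.2% and 83.4%. Equal totals without the 10 highest genes gave 2772 higher and 8460 lower. A filter at 1 FPKM could change no count, since a gene called higher or lower already reaches 1 FPKM in a library. A filter at 5 FPKM left 2061 higher and 6346 lower. Counting genes with shared values once, an alternative chosen after seeing the data, gave 125 and 574 TF genes. Of the 104 genes named by rule none changed sign under the other pseudocounts or scalings, and 6 crossed the 2-fold limit under the median scaling. The sign of the median changed under it for 1 of 32 TF types and 3 of 17 annotated lists. Without replicates, the spread between fruits is unknown, and differences of genes near 1 FPKM rest on few fragments.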
